A study of Bos indicus with 8 samples.

Results

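Transcript signals were described in cumulus cells, the somatic cells that enclose the oocyte, from complexes cultured without follicle-stimulating hormone (FSH). Only the control channel of 8 dual-colour bovine arrays was used, and its members were the 15229 genes with a symbol, taken from 21790 of the 43794 features of the array. All control complexes were cultured for 6 h in a HEPES-buffered Tyrode lactate medium that held 3 mM adenosine, 1 µg/ml 17β-oestradiol, gentamicin, 0.2 mM pyruvate and fetal bovine serum at 10%. The other channel held complexes given FSH at 0.5 µg/ml in the same medium and was not used. The ovaries came from a slaughterhouse, the follicles measured 3 to 6 mm, and the labels give Bos indicus as the species. There were 4 control pools, named biological replicates, for which the labels give a pool size of 10 without saying of what. The labels do not say whether the pools came from separate animals, so an SD below is the spread between these pools, and a p-value sets it against the difference between the arrays of a pool. Each pool was read in Cy3 on one slide and in Cy5 on the other, so slide and dye cannot be told apart. Oestradiol and adenosine were present in every control pool, and no culture without them was measured.

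Cumulus cells derive from the granulosa of the follicle. They pass pyruvate, other metabolites and cyclic nucleotides to the oocyte through gap junctions, and the oocyte in turn signals to them with GDF9 and BMP15. The FSH receptor raises cyclic AMP in these cells, which in culture leads to release of a hyaluronan-rich matrix and loosening of the cell layers. Adenosine acts on cell-surface receptors that raise or lower cyclic AMP, and it also enters the cell and feeds the nucleotide pool.

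The values are log2 of the spot signal after subtraction of local background and quantile normalisation within each dye, averaged over the 2 dyes for each pool. A probe's brightness mixes the abundance of its transcript with how well the probe binds, so the order of signals below is an order of probe signals and not of transcript copies. Where a gene had several probes the brightest stood for it, which applied to 4024 genes. The probes of 1877 of these genes fell into different signal classes. On each array the limit was the mean plus 2 SD of its 153 negative control spots.

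Before any result, the pools were compared. The median feature signal was 108 to 164 in Cy3 and 11.5 to 42.2 in Cy5, and no array had a spot mean above 42362. Between 67.6% and 80.2% of the features exceeded the limit on the arrays of pools 1, 2 and 4, against 45.8% and 56.4% in pool 3. In pool 3 the Cy3 limit was raised by 1 negative control spot at 433, the next brightest being at 138, and without that spot 76.7% of the features exceeded it. Without 2 negative control spots below 0, 73.9% exceeded the limit on the Cy5 array of pool 3. Across all 15229 genes, pools 1 and 2 correlated with r = 0.997, pools 1 and 4 with r = 0.993 and pools 2 and 4 with r = 0.991. Pool 3 correlated with pools 1 and 2 at r = 0.966 and 0.965 and with pool 4 at r = 0.984. Pool 3 therefore stood apart from the other pools, with pool 4 nearest to it. The deviations of pool 3 from the mean of the pools correlated between Cy3 and Cy5 with r = 0.940 across the 11165 genes above the limit. For pools 1, 2 and 4 the same correlation was 0.875, 0.828 and 0.539. The main counts and the tests of single genes that rest on pool 3 are given with and without it.

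A gene was placed above the limit if its probe exceeded it on at least 6 of the 8 arrays, and 11165 genes (73.3%) did so. Of these, the brightest 10% were named bright (1117 genes, at or above 11.22) and the rest mid (10048 genes). Another 2357 genes (15.48%) exceeded the limit on at most 2 arrays and were named at the limit, and 1707 (11.2%) lay between. Cumulus cells thus gave a signal over the negative controls for most of the named genes, but many of these signals were faint. With the limit at 2 times the negative control mean, chosen after the data were seen, 7057 genes (46.3%) passed on at least 6 arrays, and 3353 of the genes above the main limit exceeded the stricter one on at most 2 arrays. The median log2 signal was 6.27 over all genes, 7.30 over the genes above the limit and 5.23 over those at it. Without pool 3 the count above the limit was 11823, on at least 5 of 6 arrays.

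**Figure D1:**
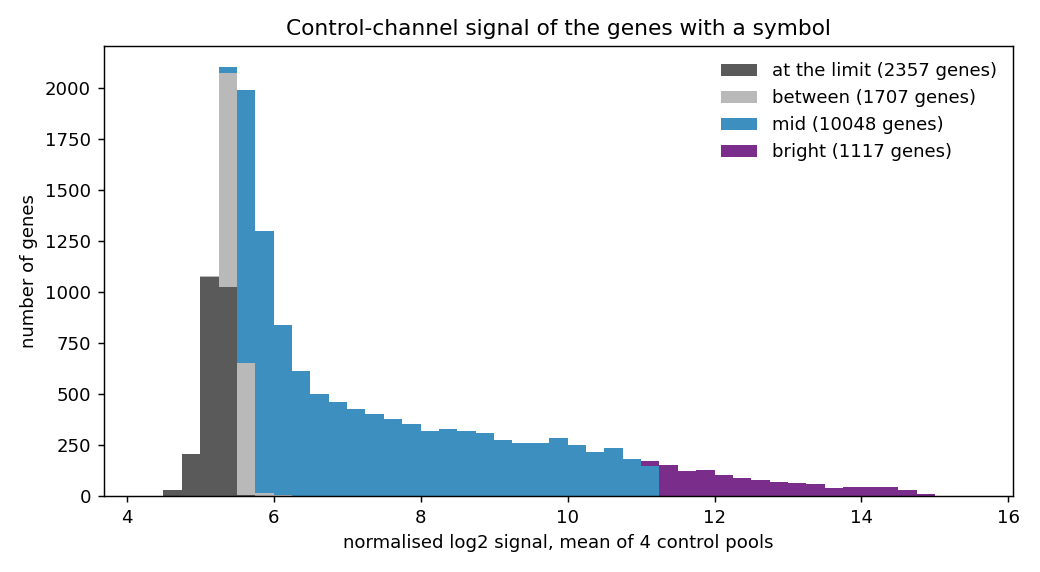
Number of genes (vertical axis) by mean normalised log2 signal over the 4 control pools (horizontal axis), stacked by signal class. The 2357 genes at the limit and the 1707 between form the narrow peak at the left, next to which most of the 10048 mid genes lie, and the 1117 bright genes form a tail that ends at 15.04.

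The brightest genes included many of energy metabolism, protein synthesis and the cytoskeleton. LDHA, the lactate dehydrogenase subunit that turns pyruvate into lactate, gave 14.98, 15.03, 15.15 and 14.98 in pools 1 to 4, a mean of 15.04 ± 0.081 (SD, n = 4). SCD, the desaturase that makes monounsaturated fatty acids, gave 14.97, 14.92, 15.07 and 15.04. ACTG1, a cytoplasmic actin, gave 15.06, 14.86, 15.06 and 14.86. For these 3 genes the pools lay close together. Quantile normalisation gives every array of a dye the same set of top values, so closeness at this end is partly set by it. They were followed by RPS2 (14.90 ± 0.27), LAPTM4B, a lysosomal membrane protein (14.89 ± 0.13), and PGK1 of glycolysis (14.86 ± 0.069). SERPINE2, a secreted protease inhibitor of granulosa cells, reached 14.85 ± 0.23, and RPL12 reached 14.85 ± 0.15. The other members of the 15 brightest were RPS6, PDIA6, GSTA5, RPS28, RPS3, the probe annotated as RPS4Y1, and EIF4G2, all between 14.70 and 14.81, with 4 genes known only by a LOC symbol passed over. Pool 3 was low for RPS28, at 13.997 against 15.02, 15.04 and 14.98. Among the 100 brightest genes, 25 were members of the list of cytosolic ribosomal proteins, 6 of glycolysis and lactate, 4 of oxidative phosphorylation and 4 of chaperones, and 35 had a LOC symbol.

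Lists of genes with a shared role put these signals in order. The share of bright genes was 7.33% over all genes, and the median percentile of a list's members is given against a percentile of 50.0 for all genes. Of 62 measured cytosolic ribosomal proteins, the structural proteins of the ribosome, 53 were bright and all were above the limit, with a median at percentile 99.02. Of 39 subunits of oxidative phosphorylation, the mitochondrial chain that makes ATP, 26 were bright (median at percentile 96.1), led by COX5B at 14.55 ± 0.17. Translation factors had 18 of 31 bright members and 26S proteasome subunits 16 of 30. Chaperones had 11 of 22, antioxidant enzymes 13 of 26 and cytoskeletal genes 15 of 30. Glycolysis had 9 of 23 bright members, among them the glucose transporter SLC2A3 (14.67 ± 0.24) and LDHB (14.47 ± 0.15). The citric acid cycle had 8 of 19, led by IDH1 (13.92 ± 0.38), while its member IDH2 exceeded the limit on 0 arrays. By their medians the lists of basic cell machinery came ahead of every list of signalling molecules and of every marker list.

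**Figure D2:**
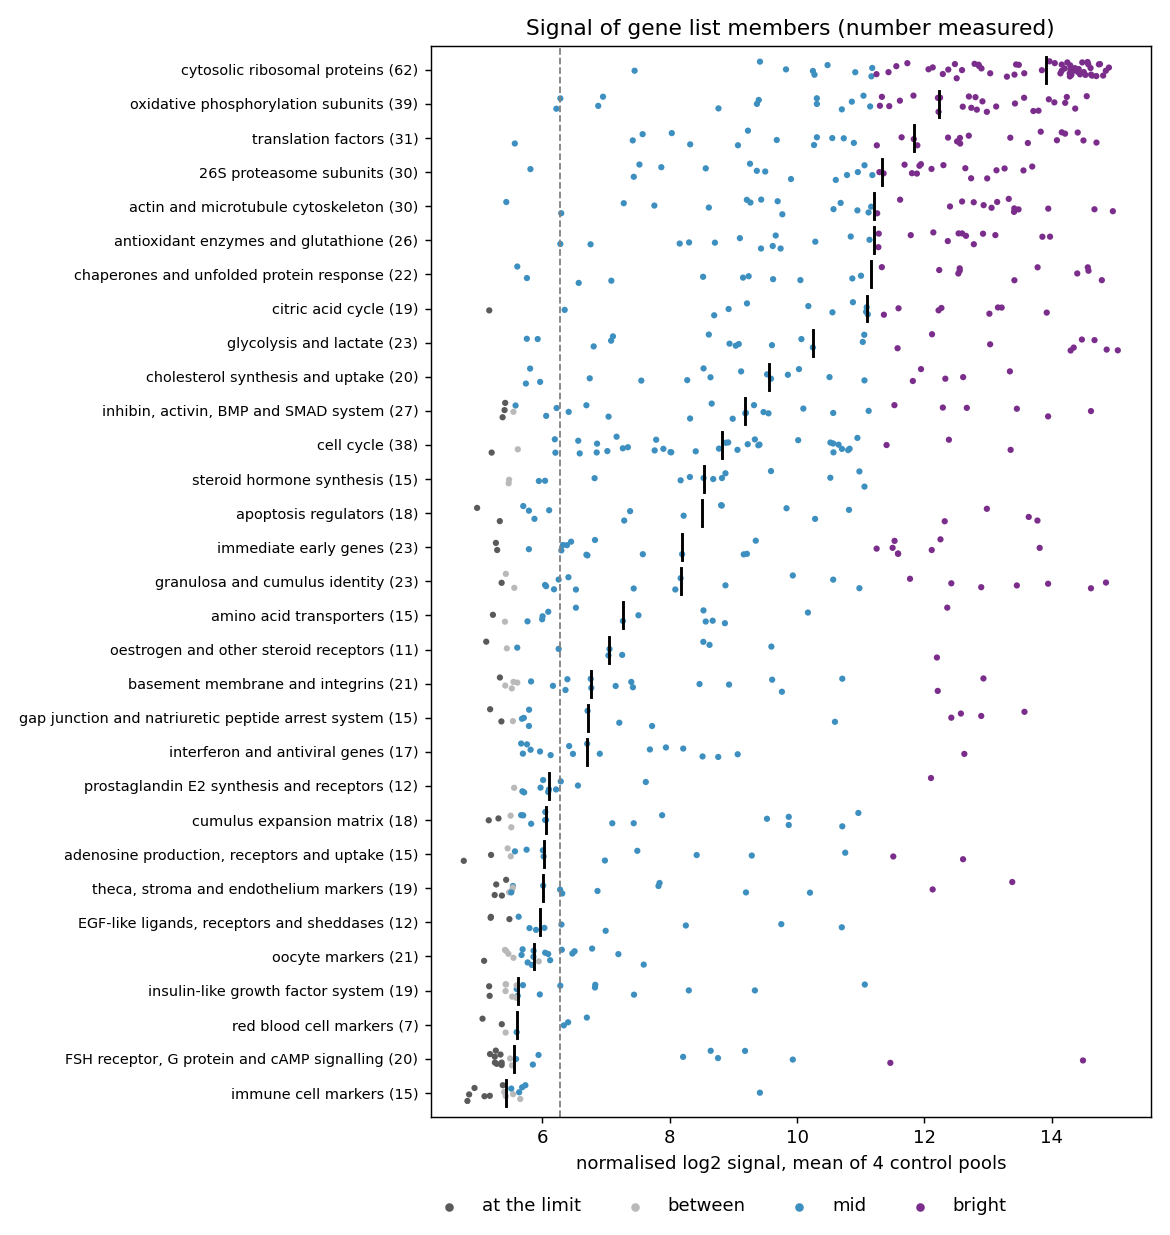
Mean normalised log2 signal over the 4 control pools (horizontal axis) for each measured member of 31 gene lists, 1 point per gene coloured by signal class, with the list median as a black bar. The dashed line is the median of all genes at 6.27. Ribosomal proteins have the highest median (13.91) and immune cell markers the lowest (5.42).

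The granulosa identity of the samples was checked on 23 measured markers. Of these 20 (87.0%) were above the limit and 7 (30.4%) were bright, against 73.3% and 7.33% of all genes. INHBA, the activin and inhibin βA subunit, gave 14.55, 14.62, 14.61 and 14.68 in pools 1 to 4. INHA, the inhibin α subunit, gave 13.92, 13.78, 14.05 and 14.02. FST, the activin-binding protein follistatin, gave 13.57, 13.56, 13.11 and 13.57. The subunits varied little between pools, and FST was lower in pool 3 alone. The other bright markers were SERPINE2, the cadherin CDH2 (12.89 ± 0.091), the gap junction protein GJA1 (12.42 ± 0.099) and the transcription factor GATA4 (11.77 ± 0.33). AMH, the anti-Müllerian hormone of small follicles, gave 8.29, 8.26, 7.74 and 8.06, in the mid class. FOXL2, a transcription factor that maintains granulosa identity in mice, gave only 5.43 ± 0.083, over the limit on 3 of 8 arrays, and AMHR2 exceeded it on 5. LHCGR, the luteinising hormone receptor, was at the limit, exceeding it on 2 of 8 arrays with both of its probes not above it. Of the 27 members of the inhibin, activin, BMP and SMAD system, 23 (85.2%) were above the limit. SMAD2, a transducer of activin signals (12.67 ± 0.11), and the BMP target ID2 (12.29 ± 0.24) were bright. ID1, SMAD5 and SMAD7 were at the limit.

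The receptor for the absent hormone was measured in all pools. FSHR gave 10.49, 10.38, 8.77 and 10.10 in pools 1 to 4, a mean of 9.93 ± 0.79. It was in the mid class and exceeded the limit on all 8 arrays, and pool 3 was the lowest pool on both dyes. In pooled cells, fewer cells of a type and less RNA per cell cannot be told apart. The G protein subunit GNAS, which couples the receptor to adenylyl cyclase, was bright at 14.49 ± 0.20, and the cyclase ADCY6 was bright at 11.47 ± 0.19. Of the 20 measured genes of the receptor, G protein and cyclic AMP list, 10 (50%) were above the limit and 8 at it. Among all genes 73.3% were above it. The regulatory subunits of protein kinase A, PRKAR1A (9.18 ± 0.24) and PRKAR2B (8.76 ± 0.047), were mid, whereas the catalytic subunit PRKACA was over the limit on 6 arrays but on none at 2 times the negative mean, and PRKACB was over the limit on none. The phosphodiesterase PDE8A, which breaks down cyclic AMP, gave 8.64 ± 0.029 with 1 of its 4 probes above the limit.

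Genes that handle adenosine were also measured in cells bathed in it. AHCY, which releases adenosine from S-adenosylhomocysteine, was bright with 12.91, 12.94, 11.72 and 12.86 in pools 1 to 4, while its other probe averaged 5.73. The equilibrative transporter SLC29A1 was bright at 11.51 ± 0.21. ADK, the kinase that turns adenosine into AMP, gave 10.61, 10.70, 10.98 and 10.73, just below the bright class. NT5E, the surface enzyme that forms adenosine from AMP, gave 9.27, 9.38, 9.24 and 9.27. Of the receptors, the Gs-coupled ADORA2A (7.49 ± 0.033) and ADORA2B (6.98 ± 0.13) were mid on all 8 arrays. ADORA1, coupled to an inhibitory G protein, gave 5.75 ± 0.11 and exceeded the limit on 6 arrays, and ADORA3 exceeded it on 5. The deaminase ADA, which turns adenosine into inosine, exceeded the limit on 3 arrays. In all, 11 of 15 measured members (73.3%) were above the limit and 7 (46.7%) also exceeded 2 times the negative control mean, the same as the 73.3% and close to the 46.3% of all genes.

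Steroid synthesis genes were of middle signal. CYP19A1, the aromatase that makes oestrogens, gave 8.86, 9.17, 8.62 and 8.85 in pools 1 to 4. CYP11A1, which cleaves the cholesterol side chain, gave 9.27, 9.02, 8.12 and 8.88, and HSD3B1 gave 8.87, 9.09, 8.13 and 8.64. Pool 3 was the lowest for all 3 enzymes. STAR, which carries cholesterol into mitochondria, gave 6.68, 6.58, 7.24 and 6.77, highest in pool 3. CYP17A1, the androgen-forming enzyme of theca cells, was not above the limit and exceeded 2 times the negative control mean on 0 arrays. Of 15 measured members of the list 13 were mid and 0 bright, against 7.33% bright among all genes, with a median at percentile 74.9. Cholesterol synthesis stood higher, with 5 of 20 members bright and all above the limit: SREBF2, the regulator of the pathway, gave 12.85, 12.86, 14.30 and 13.36. SREBF2 had 2 of its 3 probes above the limit, the lowest averaging 5.36. Among steroid receptors, the progesterone receptor PGR gave 8.63 ± 0.38 and the oestrogen receptor ESR2 6.26 ± 0.25, the latter over the limit on 7 arrays. ESR1 exceeded it on 0 arrays.

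The matrix and EGF-like genes that mark cumulus expansion were faint or mid without FSH in this culture. Of their 18 and 12 measured members 0 were bright, against 7.33% of all genes, and lists this short cannot tell these shares apart. Above the limit were 77.8% and 75% of them, near the 73.3% of all genes. HAS2, the synthase of hyaluronan, gave 5.56, 6.17, 5.65 and 5.92 in pools 1 to 4, over the limit on 6 arrays but over 2 times the negative mean on only 1. PTX3, a protein that cross-links the matrix, gave 6.96, 7.74, 6.44 and 7.25. TNFAIP6, which attaches heavy chains to hyaluronan, gave 7.93, 8.48, 5.52 and 7.82. Pool 2 was highest for all 3 genes, and pool 3 was lowest for PTX3 and TNFAIP6, the latter over the limit on 6 of 8 arrays. The brightest of the matrix list was HAPLN3, a hyaluronan link protein (10.96 ± 0.60), whereas HAPLN1 was at the limit. The versican core protein VCAN gave 9.53 ± 0.41. Of the ligands, BTC gave 10.70 ± 0.18, and AREG exceeded the limit on 1 of 8 arrays, at 5.12, 5.08, 5.17 and 5.39. The receptor EGFR gave 6.30 ± 0.056. PTGS2, the inducible cyclooxygenase, gave 6.40, 6.46, 6.04 and 6.25, over 2 times the negative mean on 3 arrays, with 1 of its 3 probes above the limit. GREM1, a BMP antagonist raised by oocyte signals, gave 6.06 ± 0.13.

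**Figure D3:**
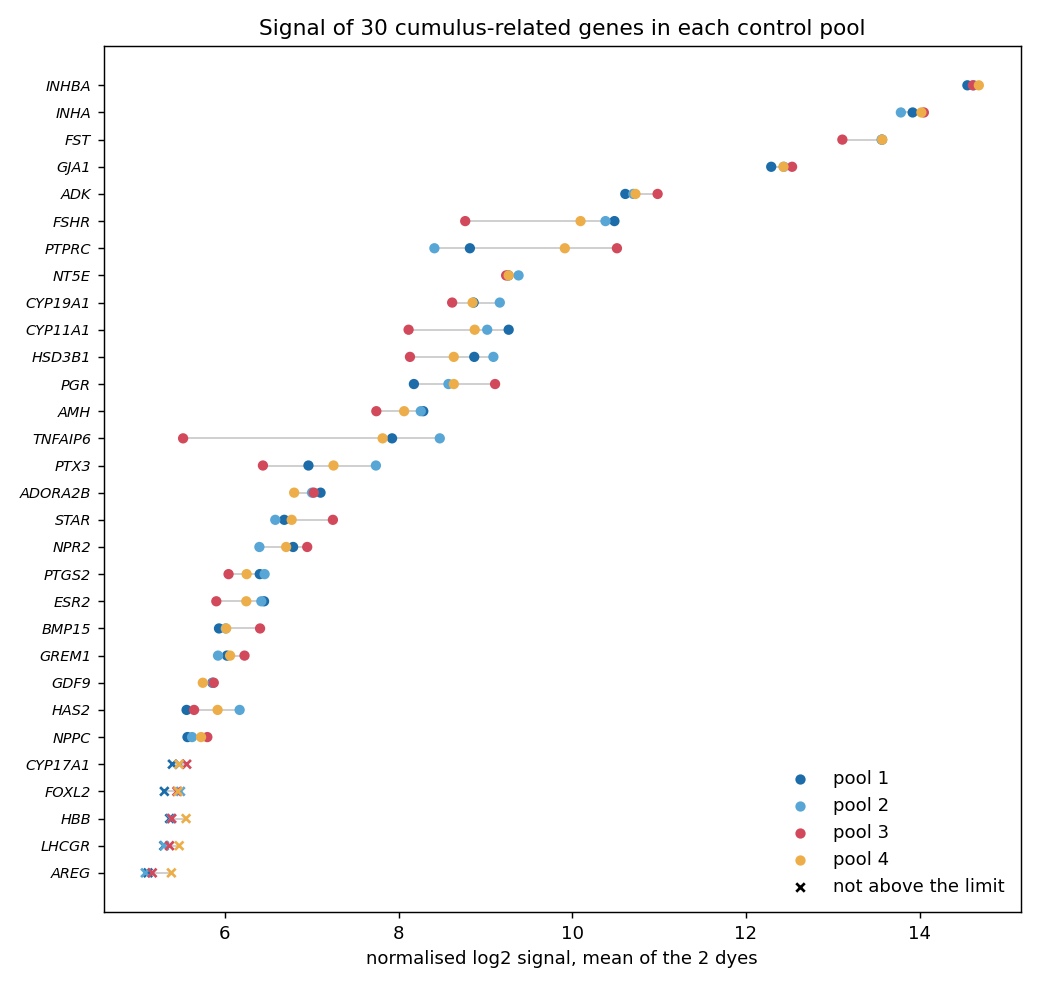
Normalised log2 signal (horizontal axis, mean of the 2 dyes) of 30 genes of cumulus biology in each control pool, 1 point per pool, with crosses for genes not above the limit. INHBA, INHA, FST and GJA1 are the 4 bright genes, and pool 3 lies apart for FSHR and TNFAIP6, while pools 3 and 4 are both high for PTPRC.

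Genes of cell contact and meiotic arrest spanned the range. GJA1 gave 12.29, 12.44, 12.53 and 12.43 in pools 1 to 4, and the adhesion proteins CTNNB1 (13.57 ± 0.12) and TJP1 (12.57 ± 0.38) were also bright. NPR2, the receptor whose cyclic GMP holds oocytes in meiotic arrest in mice, gave 6.79, 6.40, 6.95 and 6.71. Its ligand NPPC, known from mural granulosa cells in mice, gave 5.68 ± 0.10 and exceeded 2 times the negative mean on 0 arrays. The basement membrane list had 2 bright members of 21, the laminin chain LAMA1 (12.93 ± 0.46) and SPARC (12.21 ± 0.63). Of the insulin-like growth factor system, 11 of 19 members (57.9%) were above the limit and 0 were bright, against 73.3% and 7.33% of all genes. STC1 led it (11.06 ± 0.13), and IGF1 gave 5.60 ± 0.097. IGF2 gave 8.004, 8.51, 5.40 and 7.84, with 1 of its 3 probes above the limit.

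Genes of growth, stress and survival were mostly above the limit, as were 73.3% of all genes. Of 38 cell cycle genes 36 were above it and 3 were bright, namely the granulosa cyclin CCND2 (13.35 ± 0.36), PCNA (12.38 ± 0.18) and BUB1 (11.41 ± 0.39). CCND1 exceeded the limit on 0 arrays. Of 23 immediate early genes 8 were bright, led by FOS at 13.86, 13.73, 14.06 and 13.59 in pools 1 to 4, followed by EGR1 (12.25 ± 0.74) and ATF3 (12.12 ± 0.48). NR4A3 and EGR3 were at the limit. The apoptosis list had 4 bright members of 18, the mitophagy receptors BNIP3L (13.78 ± 0.38) and BNIP3 (12.32 ± 0.92), the death receptor FAS (13.64 ± 0.43) and cytochrome c, CYCS (12.98 ± 0.060). Of 15 amino acid transporters SLC38A2 alone was bright (12.36 ± 0.42). SLC38A3, a transporter that oocytes promote in mouse cumulus cells, gave 5.73, 5.80, 7.66 and 6.92, highest in pool 3.

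Markers of other cell types were read as a check of the samples. Of 21 oocyte markers 0 were bright, against 7.33% of all genes, and 15 (71.4%) were above the limit, near the 73.3% of all genes. However, only KIT (7.59 ± 0.22) passed 2 times the negative mean on at least 6 arrays. GDF9 gave 5.86, 5.86, 5.87 and 5.75, and BMP15 gave 5.93, 6.01, 6.41 and 6.02. NOBOX exceeded the limit on 3 arrays and TDRD1 on 0. Of 15 immune cell markers 5 (33.3%) were above the limit. PTPRC, the leukocyte surface phosphatase CD45, was the exception to their low signal with 8.82, 8.41, 10.51 and 9.91, while its other probe averaged 4.78 and the other 14 markers averaged 4.82 to 5.73. TYROBP, CSF1R, ITGAM, LCP1 and NCF1 exceeded the limit on 0 arrays. Of 7 red blood cell markers HBA led at 6.70 ± 0.22, and HBB exceeded the limit on 4 arrays and 2 times the negative mean on none. Of 19 markers of theca, stroma and endothelium 12 (63.2%) were above the limit and 2 were bright. These were ACTA2, an actin of smooth muscle close in sequence to the actins of other cells (13.38 ± 0.51), and MCAM, an adhesion molecule (12.13 ± 0.36). Above it in the mid class were LUM (10.20), PDGFRA (9.20), DES (7.84), MYH11 (7.82), COL1A1 (6.87), COL3A1 (6.31), the theca hormone INSL3 (6.28), TEK (6.01), VWF (5.54) and TAGLN (5.51), of which INSL3, TEK, VWF, TAGLN and COL3A1 exceeded 2 times the negative mean on at most 5 arrays. The other 7, CYP17A1, CDH5, COL1A2, DCN, PDGFRB, KDR and PECAM1, were not above the limit.

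The spread over the 4 pools was small for most genes and smaller without pool 3. Among genes above the limit the median SD was 0.156, with quartiles of 0.0868 and 0.308, and it was 0.0975 over pools 1, 2 and 4. For bright genes the median SD was 0.230 with pool 3 and 0.0991 without it, and for mid genes it was 0.149 and 0.0972. The pools spanned more than 1 log2 unit for 1483 genes, and for 249 without pool 3. To see whether pools differed beyond the difference between their 2 arrays, the pool term was tested by limma's moderated F test with dye as a covariate. It passed at an adjusted p under 0.05 for 6429 of 11165 genes (57.6%), and for 3320 (29.7%) without pool 3. This count depended on the normalisation, since it was 3337 with scaling to the 75th percentile and 132 with scaling to the median of each array. In the 6429 genes pool 3 was highest for 2871 and lowest for 3258.

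**Figure D4:**
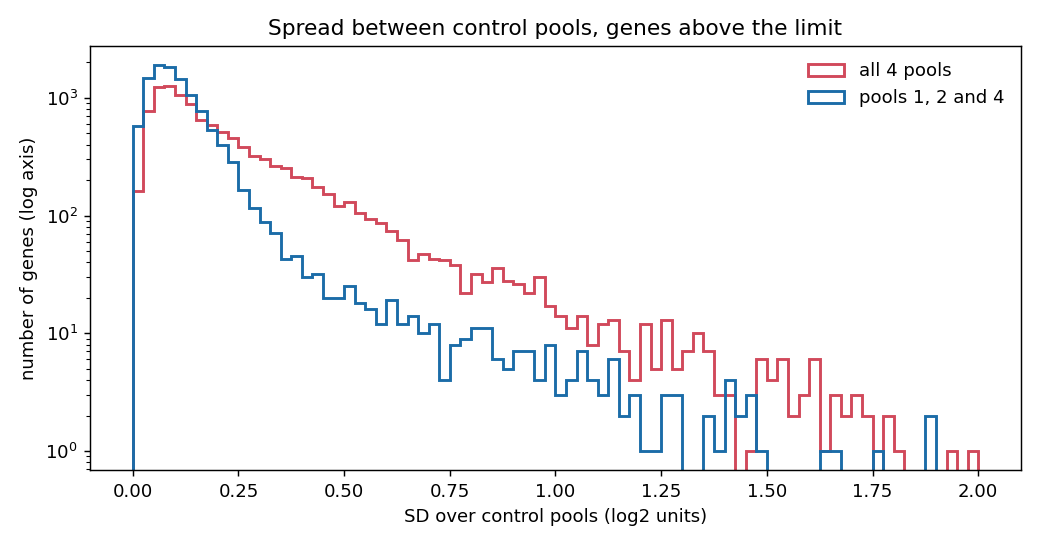
Number of genes above the limit (vertical log axis) by the SD of their log2 signal over control pools (horizontal axis), for all 4 pools and for pools 1, 2 and 4. Leaving out pool 3 moves the median SD from 0.156 to 0.0975 and thins out the right tail.

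Among the genes over the limit on all 8 arrays, most of the 10 with the largest spread were high in pool 3 and next highest in pool 4. A gene low in pool 3 could miss that filter, as TIMP1 did (SD 1.49, over the limit on 7 arrays). Over all genes above the limit, pool 3 was more than 1 log2 unit above the mean of the other pools for 455. It was more than 1 below that mean for 526. KCNS1, a subunit of potassium channels, gave 5.97, 5.82, 9.67 and 7.72 in pools 1 to 4. On single arrays it gave 10.23 in Cy3 and 9.11 in Cy5 in pool 3, against 7.04 and 4.90 in pool 1. NOL9, a kinase of ribosomal RNA processing, gave 6.10, 5.85, 9.62 and 8.21. The same order held for the lens crystallins CRYBB1 and CRYGD, the calcineurin regulator RCAN1, the co-chaperone DNAJC6 (1 of its 3 probes above the limit), the chromatin remodelling subunit SMARCD2 and the vesicle GTPase RAB27A. For these 8 genes limma's F test gave adjusted p values from 5.14e-05 (RCAN1) to 0.00073 (DNAJC6), from 0.00529 to 0.00778 without pool 3, and from 0.0168 to 0.01997 with scaling to the median. GADD45A, a stress-response gene, went the other way with 12.58, 12.45, 9.09 and 12.23 (adjusted p = 4.02e-05 by limma's F test, 0.0391 without pool 3 and 0.01997 with scaling to the median). The other GADD45A probe averaged 6.91. The remaining gene of the 10, the kinase CDK14, rested on a single spot. It gave 14.05 in Cy3 and 6.14 in Cy5 in pool 1, against 7.44 to 7.78 in Cy3 and 5.54 to 5.97 in Cy5 in the other pools, and did not pass the test (adjusted p = 0.217, limma).

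At the other end, TRUB2, a pseudouridine synthase, gave 7.98 ± 0.0037, the smallest SD among the genes over the limit on all 8 arrays. The 10 smallest SD values ended at 0.0112 for N4BP2L1 (8.98) and included MTR, the methionine synthase (6.17 ± 0.0058), and GALT of galactose breakdown (8.46 ± 0.010). The 10 genes nearest the median signal of those above the limit had SD values on both sides of 0.156, the median SD of that class. They ran from 0.050 for ESYT1 to 0.45 for GYPC, with 0.168 for ALDH4A1. ESYT1, a membrane contact protein, gave 7.34, 7.35, 7.25 and 7.26, and the transporter ABCB1 gave 7.29, 7.39, 7.26 and 7.26. GYPC, a membrane glycoprotein, gave 7.596, 7.74, 6.76 and 7.11, the widest of the 10 such genes with an SD of 0.45.

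In pool 3, several oocyte markers were higher and several cumulus transcripts lower than in pools 1 and 2, while others of both kinds were not. BTG4, which clears maternal mRNA in mouse oocytes, gave 5.86, 5.84, 9.25 and 7.82 in pools 1 to 4. It gave 10.00 in Cy3 and 8.51 in Cy5 in pool 3, against 6.996 and 4.73 in pool 1 (adjusted p = 0.00017 by limma's F test, 0.00725 without pool 3 and 0.0168 with scaling to the median). DPPA3, a maternal chromatin factor, gave 5.38, 5.55, 8.21 and 6.89 (adjusted p = 0.000255, 0.00696 without pool 3 and 0.01997 with scaling to the median, limma). FIGLA, ZP2, ZP4 and H1FOO followed the same order of pools. Each had an adjusted p of 0.00214 or less by limma's F test, and from 0.0116 to 0.0209 without pool 3. With scaling to the median none of these 4 passed. DPPA3 and ZP2 each had 1 of 2 probes above the limit, the other averaging 5.40 and 5.51. The summed signal of the 21 oocyte markers was 1205, 1274, 2661 and 1643 in pools 1 to 4. Of the 15 above the limit 10 passed limma's F test, which was 66.7% against 57.6% of all genes, 8 passed without pool 3 (53.3% against 29.7%), and 2 passed with scaling to the median. GDF9 did not follow this order, at 5.87 in pool 3 with an adjusted p of 0.355 (limma). Among the 10 markers that passed limma's F test, 8 were highest in pool 3, against 2871 of the 6429 of all genes. KIT was highest in pool 2, and MOS was lowest in pool 3 (6.55, 6.51, 5.89 and 6.27 in pools 1 to 4).

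Cumulus transcripts that were low in pool 3 included FSHR (adjusted p = 0.000128 by limma's F test, 0.0144 without pool 3 and 0.107 with scaling to the median), TNFAIP6 (0.000526, 0.00725 without pool 3 and 0.0589 with scaling to the median) and the BMP pseudoreceptor BAMBI. BAMBI gave 10.00, 9.91, 7.31 and 9.53 (adjusted p = 4.02e-05 by limma's F test, 0.00881 without pool 3 and 0.039 with scaling to the median). The matrix protease inhibitor TIMP1 gave 9.01, 8.58, 5.70 and 8.24. Other cumulus markers did not move this way, since GJA1, INHA and INHBA were as high in pool 3 as elsewhere, GATA4 was highest in it at 12.26, and NR5A2 gave 10.57, 10.75, 11.59 and 11.001. BAMBI and TIMP1 were not members of the granulosa marker list. Of the 20 granulosa markers above the limit, 10 were lowest and 7 highest in pool 3. Among all 11165 genes above the limit, 4775 were lowest and 4419 highest in it. The summed signal of the 23 granulosa markers was 107455, 103757, 107892 and 102321.

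Most interferon and ribosomal genes also had their lowest value in pool 3. Of the 17 measured interferon and antiviral genes 14 had their lowest value in pool 3, and 11 passed limma's F test (64.7%, near the 57.6% of all genes), 10 without pool 3 (58.8% against 29.7%) and 2 with scaling to the median. OAS1, an RNA-sensing antiviral synthetase, gave 9.62, 9.52, 6.76 and 9.15, and RSAD2 gave 8.58, 8.92, 5.97 and 8.30. Of the 62 ribosomal proteins 53 had their lowest value in pool 3. The list median was 14.06, 14.08, 13.26 and 13.98 in pools 1 to 4. In this list 41 members passed limma's F test (66.1%, near the 57.6% of all genes) and 17 without pool 3 (27.4% against 29.7%). With scaling to the 75th percentile 51 passed, against 3337 of all genes above the limit, and with scaling to the median 2 passed. With the 75th percentile scaling 9 of the 17 interferon genes and 6 of the 15 oocyte markers above the limit passed. RPS19 gave 11.89, 11.79, 8.51 and 11.47 and RPS9 gave 11.38, 11.23, 8.47 and 10.84, whereas RPS6 gave 14.87, 14.78, 14.68 and 14.90. The lists of oxidative phosphorylation and of the cytoskeleton had 27 of 39 and 24 of 30 members lowest in pool 3. This compares with 4775 of the 11165 genes above the limit.

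Pool 4 lay between the extremes of the other pools for many genes. Pool 3 exceeded both pools 1 and 2 by more than 1 log2 unit for 519 genes, and pool 4 was in between for 517 of them. It fell short of both by more than 1 for 555 genes, and pool 4 was in between for 529. These genes were chosen for an extreme pool 3, which makes a pool 4 inside the range likely, and over all 11165 genes above the limit pool 4 lay between pool 3 and the mean of pools 1 and 2 for 8226 (73.7%). The summed oocyte signal and the muscle filament gene DES (6.81, 6.26, 9.41 and 8.88) were also highest in pool 3 and next in pool 4. The summed signal of the immune markers was 1030, 928, 2047 and 1544 with PTPRC, but 578, 587, 584 and 579 over the other 14, so that list apart from PTPRC showed no order of pools. The summed signal of the 19 theca, stroma and endothelium markers was 21436, 20041, 12270 and 21603, to which ACTA2 gave the most. Over the other 18 it was 8214, 8309, 5936 and 8462, while the list median was 6.10, 5.95, 5.84 and 5.98, and DES and PDGFRA were highest in pool 3. The part of RNA from oocytes or other cells in these differences was not tested.

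**Figure D5:**
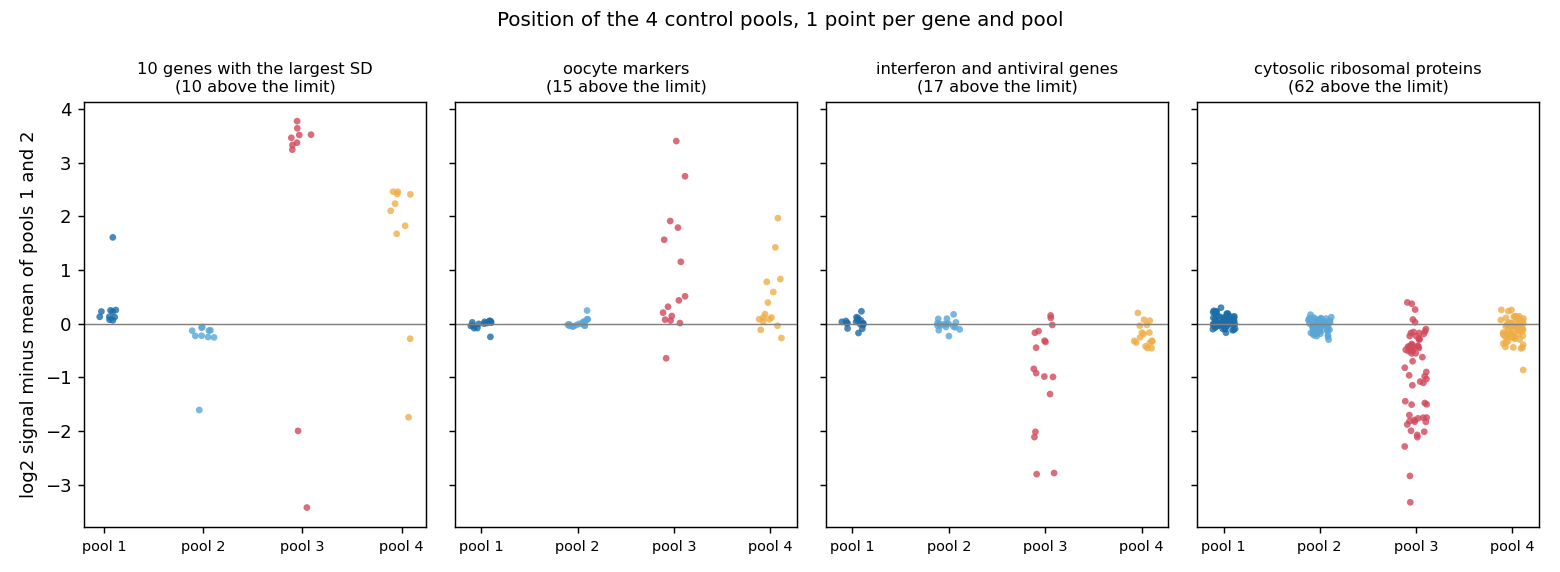
Log2 signal of each gene in each control pool minus its mean over pools 1 and 2 (vertical axis), 1 point per gene and pool, for the 10 genes of largest SD and the members of 3 lists above the limit. Pool 3 lies high for 6 of the oocyte markers by more than 1 log2 unit and low for most interferon and ribosomal genes, with pool 4 between.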

How the data were processed

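Transcripts of cultured bovine cumulus cells were measured on arrays of 45220 spots. Per the labels' protocols, RNA was amplified by T7 transcription and coupled to Cy3 or Cy5 dye, and the authors deposited the scanner's spot intensity files, not normalised. The genome build was not given in the sources used here. From the control channel, mean foreground minus median background was set to at least 1, put on a log2 scale and quantile-normalised within each dye. Each spot was used on its own, and dyes were averaged per pool. Symbols came from the platform's annotation, with 12516 of 15229 found in RefSeq. Pools were compared with limma 3.58.1 in R 4.3.3 (dye as covariate, Benjamini-Hochberg adjustment over 11165 genes). Tested on simulated data with 200 changed genes among 11165, the fit called 55.7%, 94.1% and 97.2% of shifts of 0.5, 1 and 2 log2 units, with 6 false calls. The 2 arrays of a pool are technical, so p-values set the spread between pools against the spread between arrays of a pool.

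Genes named by rule were the 15 brightest, the 10 nearest the median, the 10 with the largest and the 10 with the smallest SD among genes over the limit on all 8 arrays (LOC symbols passed over in these), the brightest and most variable member of each list, and 30 genes of cumulus biology. Other list members were chosen after their values were seen. Members and lists were chosen with earlier results of these data known. Alternatives covered the background correction, scaling, limit, probe choice, dye, filter and each pool left out. The number of arrays limits the precision.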

Additional observations from a re-analysis of the deposited data

Results flagged for a closer look

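Some genes had 1 pool far from the other 3, with the gap to the nearest pool divided by the whole range above Dixon's critical value for 4 samples. Chance gives about 1 in 20 such groups, and 597 of the 11165 genes above the limit (5.35%) met this criterion, as did 17 of the 121 named genes. Pool 3 was the low pool for RPS2 (0.868), RPS28 (0.941), GADD45A (0.902), ACTA2 (0.838), AHCY (0.931), CCND2 (0.862), FDPS of cholesterol synthesis (0.860), ATP5O (0.873), RPS19 (0.876), GPX4 (0.841), LGALS1 (0.890), OAS1 (0.834) and FST (0.984). Pool 1 was low for GSTA5 (0.860) and high for CDK14 (0.892), and pool 4 was low for GDF9 (0.874) and high for HBB (0.871). Among list medians, pool 3 was low for steroid hormone synthesis (0.864), ribosomal proteins (0.871) and antioxidant enzymes (0.835) and high for amino acid transporters (0.858). The members did not follow the median in 2 of these lists. Steroid synthesis had 7 members highest and 4 lowest in pool 3, and its highest summed signal there (11100 against 8198 to 9368). Amino acid transporters had 5 highest and 7 lowest, and their lowest sum there (6789 against 9213 to 10105). Over all genes above the limit, pool 3 was the pool apart for 181 genes as the highest and 252 as the lowest.

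Of the 22004 features without a symbol, 12903 (58.6%) exceeded the negative control limit on at least 6 arrays, and 559 were as bright as the bright genes. They were not described further.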

How the results depend on the processing

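The 1117 bright genes overlapped with 913 to 1117 of themselves under other background corrections, scalings, dyes and probe choices, and with 991 to 1093 when a pool was left out. With the limit at 2 times the negative control mean, 7057 genes were above it and 7416 at it, because many signals lie close to the negative controls. Under the other limits, dyes and probe choices the count above was 10153 to 11744 and the count at the limit 2369 to 3162, and leaving out a pool gave 9902 to 11823 above and 1838 to 2422 at it. The count of genes that differed among pools was 6429, and it fell to 3337 with scaling to the 75th percentile, to 132 with scaling to the median and to 0 without the dye term by limma, where 44 of 11165 had an unadjusted p under 0.05. The cause of the change with scaling was not tested. Leaving out a pool gave 2996 (without pool 3, the limit reapplied to 6 arrays) to 6224, and the other settings gave 5883 to 7030. Of the 121 named signals, 76 moved by over 1 SD with Cy3 alone, 75 with Cy5 alone, 40 with normexp, 31 without background subtraction, 19 with the median probe and 0 under either scaling. The SD leaves out the offset between dyes, so the single-dye counts largely show that offset. TRUB2 gave 8.68 in Cy3 and 7.27 in Cy5 with an SD of 0.0037, although the dye means correlated with r = 0.995 across genes. Both scalings give a gene the same mean over pools, so they are not separate checks here. Leaving out 1 of 4 pools cannot move a mean by over 1 SD, so that setting says nothing about these signals. No paired analysis was possible because there is 1 group.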
